A study of Mus musculus with 12 samples.

Results

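Serotonin receptors are the proteins through which neurons of the lateral septum, a forebrain nucleus beneath the corpus callosum, read serotonin released by axons from the raphe nuclei. The genes described here are 10 mouse serotonin receptor genes, picked by symbol (Htr1a, Htr1b, Htr1d, Htr1f, Htr2a, Htr2c, Htr3a, Htr4, Htr5a and Htr7), out of 54532 genes in the deposited table. All 10 were found, and 9 reached 1 FPKM (a read level corrected for gene length and for the library's read total) in at least 6 libraries. Htr1d did not, and was tested with a lower filter. Bulk RNA was sequenced from the lateral septum of wild-type mice on day 3, with 6 libraries labelled CFA and 6 labelled saline. CFA is the usual short form in pain research of complete Freund's adjuvant, an oil emulsion with killed mycobacteria that causes lasting inflammation where it is injected. The series' title concerns chronic inflammatory pain and the microglia of this nucleus, and the comparison of CFA with saline asks which transcripts of the septum differ while the inflammation lasts. The labels give neither the age, sex or strain of the animals nor the injected site, and none says that each library came from a separate animal. The p-values therefore weigh differences against the spread among these samples, part of which may be technical.

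Most serotonin receptors are coupled to G proteins, and the family is sorted by the protein each one engages. The receptors encoded by Htr1a, Htr1b, Htr1d, Htr1f and Htr5a act through the inhibitory proteins of the Gi and Go class, which lower cyclic AMP and open potassium channels. Those of Htr2a and Htr2c act through Gq and phospholipase C, those of Htr4 and Htr7 through Gs, which raises cyclic AMP, and the product of Htr3a is a subunit of an ion channel that serotonin opens directly. The septum receives serotonin fibres from the raphe, and its inhibitory neurons are known for strong hyperpolarisation through the receptor of Htr1a.

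The libraries held 33.6 to 39.2 M reads. Several stood apart in which tissue they contained. The choroid plexus, the secretory epithelium that borders the ventricle beside the septum, left its transcript Ttr at 7.07 to 44.5 FPKM in CFA libraries and at 4.5 to 2259 FPKM in saline libraries, with saline 3 at 2259 and saline 5 at 701. Slc17a7, the vesicular glutamate transporter of cortical and hippocampal excitatory neurons, ran over 4.70 to 78.7 FPKM in CFA libraries and over 2.38 to 69.7 FPKM in saline libraries. Penk, carried by striatal projection neurons, ran over 37.5 to 180 FPKM in CFA libraries and over 44.6 to 91.3 FPKM in saline libraries, highest in CFA 1 and CFA 6. Xist, the RNA made from the inactive X chromosome of females and chosen here after its values were seen, was above 1 FPKM in 5 CFA libraries and in 2 saline libraries. The lateral septum list was lower in CFA libraries in 10 of its 11 tested genes, with a median difference of -0.13 on the log2(FPKM + 1) scale. None of these genes passed in limma, and 0 had an unadjusted p under 0.05, against 7.67% of all genes tested. The part of this list in the results was not tested. Its highest gene, Sst, averaged 185 ± 9.65 FPKM in CFA libraries and 192 ± 22.8 FPKM in saline libraries (SD, n = 6 each). In bulk tissue, fewer cells of a type and less RNA per cell cannot be told apart.

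None of the 10 receptor genes differed between CFA and saline libraries past the threshold. In limma's fit on log2(FPKM + 1), adjusted by Benjamini and Hochberg's method across 13345 genes, 0 of the 9 receptor genes tested passed an adjusted p of 0.05, against 0.0300% of all genes tested. Of these 9, 2 had an unadjusted p under 0.05, against 7.67% of all genes tested, and both were lower in CFA libraries. These were Htr1a and Htr7. In the fit with the lower filter, on log2(FPKM + 0.1), 0 of 10 passed, against 0.0147% of the 20354 genes tested, and 3 of 10 had an unadjusted p under 0.05, against 7.17%. The gene added there was Htr1d, which was higher in CFA libraries. The ranges of CFA and saline libraries overlapped for all 10 receptor genes, whereas 0.495% of the 13345 genes had ranges that did not overlap. Over the 9 genes, 3 differences were positive and 6 negative, with a median of -0.09 on the log2(FPKM + 1) scale, and over all genes tested the median was -0.00427. Exact permutation tests, which are not adjusted, gave p under 0.05 for 2 of the 10 genes, Htr1a and Htr1d, against 7.06% of the 20354 genes, and limma voom on the recovered reads called 0 of 9. In the whole table limma called 4 genes. In data simulated on these libraries, the first fit recovered 33 of 47 genes changed by 0.6 and 15 of 47 genes changed by 0.3 on the log2 scale. Those data also held 47 genes changed by 1 and 49 changed by 1.5, of which 46 and 47 were recovered. The fit with the lower filter, run on its own simulated data, recovered 11 of 50 genes changed by 0.3 and 33 of 48 changed by 0.6. At 1 and 1.5 it recovered 33 of 48 and 36 of 49. With so many more genes called than in the real libraries, 4 in the first fit and 3 with the lower filter, the adjusted threshold was easier to pass. These shares therefore do not give the power to call a receptor gene in the real libraries.

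**Figure D1:**
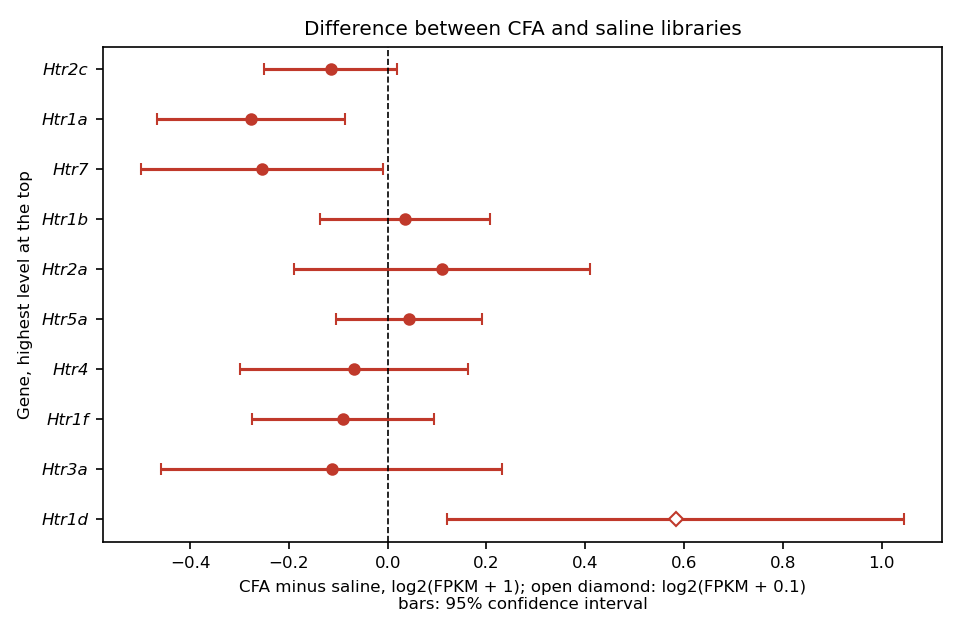
Difference between CFA and saline libraries for each receptor gene, on the log2(FPKM + 1) scale, with its 95% confidence interval from limma. The open diamond is Htr1d, on the log2(FPKM + 0.1) scale. Genes run from the highest level at the top to the lowest. The intervals of Htr1a, Htr7 and Htr1d lie to one side of 0, and the other 7 cross it.

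The receptor genes covered a wide span of levels, and their order by mean FPKM was the same in CFA and in saline libraries. FPKM is scaled by gene length, so levels may be compared between genes, though only roughly. The length equals that of all annotated exons for Htr2c (9328 bases, 7 transcripts) and for Htr1a (4484 bases, 1 transcript). Where shorter transcripts are in use FPKM is too low, so close orders between genes are not assured. Over all 12 libraries Htr2c was the highest, at 16.9 ± 1.47 FPKM, followed by Htr1a at 14.1 ± 2.24, Htr7 at 10.6 ± 1.91 and Htr1b at 5.29 ± 0.618 FPKM (SD, n = 12). Htr2a (3.24 ± 0.819 FPKM) and Htr5a (2.70 ± 0.281 FPKM) came next. Htr4, Htr1f and Htr3a lay at 1.54, 1.44 and 1.14 FPKM, and Htr1d was the lowest at 0.729 ± 0.278 FPKM. Taking neighbours in this order within each library, 5 of the 9 pairs differed by more than the SD of their log2 ratio. The pairs that did not were Htr2a with Htr5a, Htr4 with Htr1f, Htr1f with Htr3a, and Htr3a with Htr1d. Htr2c was above Htr1a in 10 of 12 libraries, and Htr1a was above Htr7 in 12 of 12. Htr2c, Htr1a and Htr7 together made up 70.1% ± 3.68 of the summed FPKM of the 10 genes in CFA libraries and 73.8% ± 2.51 in saline libraries (SD, n = 6 each).

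**Figure D2:**
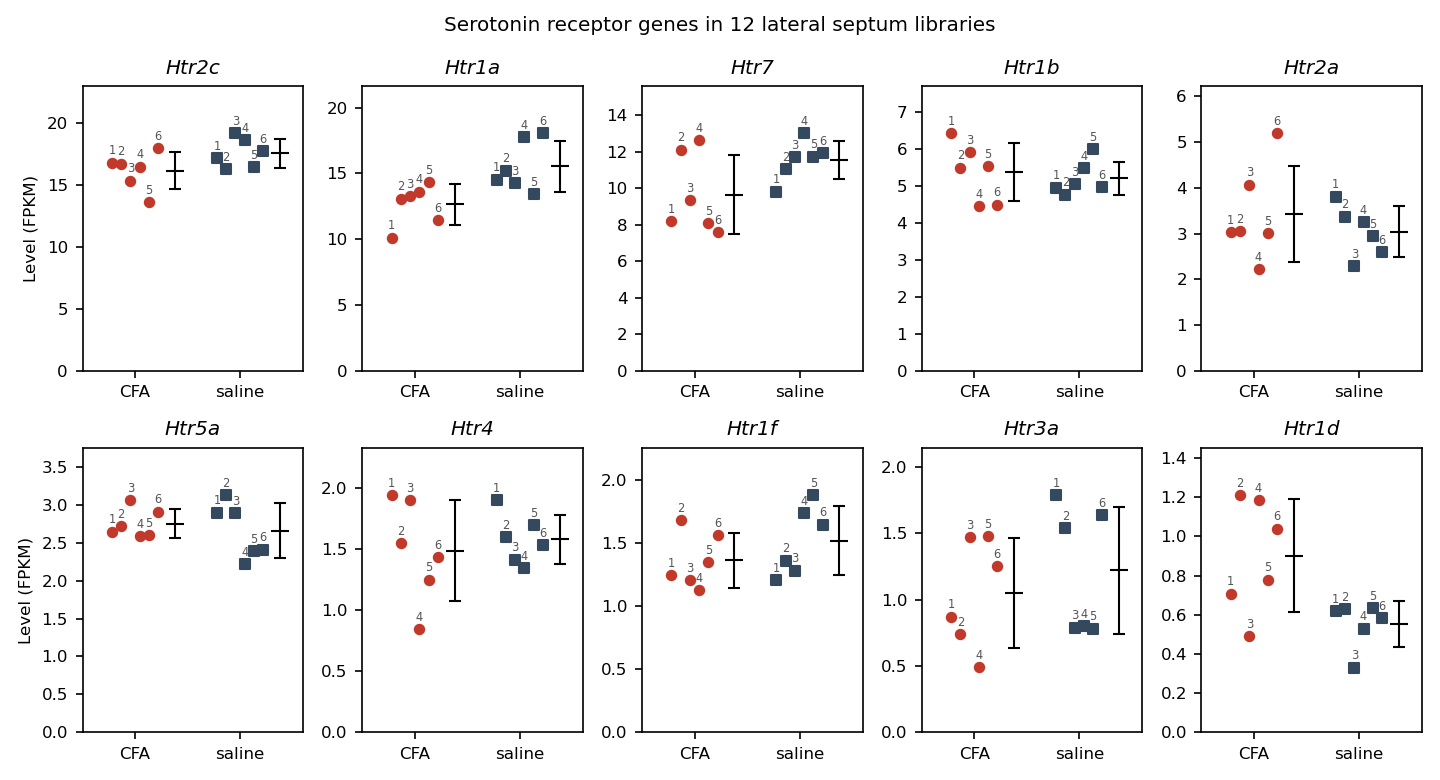
Level of each receptor gene in FPKM, with a panel per gene in order of mean level and a point per library, numbered by replicate. CFA libraries are circles at the left of a panel and saline libraries squares at the right, and the bars are the mean and SD of 6 libraries. Each panel has its own axis from 0. The 2 groups overlap in every panel. Htr1a and Htr7 sit lower in most CFA libraries, and Htr1d sits higher in 5 of 6.

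Among the genes of the Gi-coupled receptors, Htr1a showed the clearest difference. Its protein is the receptor by which serotonin silences many forebrain neurons, and it is also the autoreceptor of raphe neurons. The gene lies on chromosome 13 (105443639 to 105448122, plus strand, GRCm38) as 1 exon, with no overlapping gene in GENCODE M21. Htr1a had a lowest value of 10.1, a median of 13.2 and a highest value of 14.3 FPKM in CFA libraries, against 13.4, 14.9 and 18.0 FPKM in saline libraries. All 6 CFA libraries were below the median of the saline libraries, and 4 of 6 were below the lowest of them, yet the groups overlapped through CFA 4 and CFA 5. The means were 12.6 ± 1.55 FPKM in CFA libraries and 15.5 ± 1.91 FPKM in saline libraries (SD, n = 6 each). The difference was -0.28 on the log2(FPKM + 1) scale (SE 0.09, 95% confidence interval -0.47 to -0.09). It did not pass the threshold in limma (unadjusted p = 0.00757, adjusted p = 0.407), and the two-sided exact permutation test gave p = 0.0108, with 0.00216 the smallest it can give. Reads on Htr1a numbered 1803 to 2948 per library, so counting error alone would give a coefficient of variation of 2.16% in CFA and 2.00% in saline libraries, against 12.3% observed in both.

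Other fits of Htr1a took features of the libraries into account. With single libraries left out its difference ran from -0.31 to -0.22 (SE 0.09 with all 12). With Xist as a covariate it was -0.20 (adjusted p = 0.818 in limma), and over the libraries with Xist alone, 5 CFA and 2 saline, a choice made after seeing the data, it was -0.19 (adjusted p = 0.999). In those libraries Htr1a ranged over 10.1 to 14.3 FPKM in CFA and over 13.4 to 15.2 FPKM in saline. In libraries without Xist it was 13.3 FPKM in the 1 CFA library and 14.3 to 18.0 FPKM in the 4 saline libraries. All 8 pan-neuronal markers were lower in CFA libraries, with a median difference of -0.07, and with their mean as a covariate the difference in Htr1a was -0.21 (adjusted p = 0.716 in limma). Without saline 3 and saline 5, the libraries high in choroid plexus, it was -0.35 (adjusted p = 0.390 in limma). The part that sex and neuronal content play in the difference was not tested beyond these fits. As most CFA libraries and few saline libraries have Xist, the part of sex could not be fully separated.

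Htr1b encodes the receptor on axon terminals that limits release of serotonin and of other transmitters. Htr1b had a lowest value of 4.45, a median of 5.51 and a highest value of 6.42 FPKM in CFA libraries, against 4.77, 5.01 and 6.00 FPKM in saline libraries. The highest library was CFA 1 and the lowest was CFA 4, so the CFA libraries spanned the whole saline range. The difference was 0.04 (SE 0.08, 95% confidence interval -0.14 to 0.21, adjusted p = 0.952 in limma), and it turned to -0.0092 without CFA 1 and was 0.080 without CFA 4. The gene (chromosome 9, 81628291 to 81633828, minus strand) shares 852 exon bases with the antisense gene D430036J16Rik, and with no strand setting given in the sources used here the reads of these genes cannot be told apart.

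Htr1d encodes a close relative of the receptor of Htr1b, likewise found on axon terminals, and lies on chromosome 4 (136423524 to 136444398, plus strand). Htr1d had a lowest value of 0.491, a median of 0.910 and a highest value of 1.21 FPKM in CFA libraries, against 0.330, 0.601 and 0.634 FPKM in saline libraries. CFA 3 lay within the saline range, and the other 5 CFA libraries were above the highest saline library. The means were 0.903 ± 0.289 FPKM in CFA libraries and 0.555 ± 0.117 FPKM in saline libraries (SD, n = 6 each). On the log2(FPKM + 0.1) scale the difference was 0.58 (SE 0.21, 95% confidence interval 0.12 to 1.04), a 1.5-fold higher value with an interval of 1.09 to 2.06. It did not pass the threshold in limma (unadjusted p = 0.0172, adjusted p = 0.597), and the exact permutation test gave p = 0.0281. Each value rests on 38 to 144 reads, and counting error alone would give a coefficient of variation of 9.62% in CFA and 12.5% in saline libraries, against 32% and 21% observed.

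Htr1d was likewise compared in libraries with and without Xist. Among libraries with Xist, a choice made after seeing the data, it was 0.708 to 1.21 FPKM in 5 CFA libraries. It was 0.631 to 0.634 FPKM in the 2 saline libraries with Xist, too few to give the saline range. In libraries without Xist it was 0.491 FPKM in the 1 CFA library and 0.330 to 0.620 FPKM in the 4 saline libraries. Over the libraries with Xist alone the difference was 0.54 (95% confidence interval -0.03 to 1.11, adjusted p = 0.998 in limma). With Xist as a covariate over all 12 libraries it was 0.34 (adjusted p = 0.873), and its 95% confidence interval of -0.15 to 0.83 then crossed 0. Without saline 3 and saline 5 the difference was 0.48 (95% confidence interval -0.013 to 0.98, adjusted p = 0.703 in limma). As most CFA libraries and few saline libraries have Xist, the part of sex in the difference could not be fully separated.

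Htr1f and Htr5a complete the Gi-coupled group. Htr1f (chromosome 16, 64924729 to 65105854, minus strand), whose receptor is the target of a migraine drug, averaged 1.36 ± 0.216 FPKM in CFA libraries and 1.52 ± 0.274 FPKM in saline libraries (SD, n = 6 each). Its ranges were 1.13 to 1.68 FPKM in CFA and 1.21 to 1.88 FPKM in saline, and the difference was -0.09 (adjusted p = 0.851 in limma), and -0.051 without saline 5. Htr5a (chromosome 5, 27842149 to 27855088, plus strand), a receptor gene expressed mainly in the brain, averaged 2.75 ± 0.191 FPKM in CFA libraries and 2.65 ± 0.362 FPKM in saline libraries. It was the steadiest of the 10 genes across CFA libraries, with a coefficient of variation of 6.96% in CFA and 13.7% in saline libraries against counting errors of 4.24% and 4.41%. The difference of 0.04 (95% confidence interval -0.11 to 0.19, adjusted p = 0.933) turned to -0.020 over the libraries with Xist. It was 0.0069 without saline 4 and 0.079 without saline 2.

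Of the genes for Gq-coupled receptors, Htr2c was the highest receptor gene of the septum. Its receptor is widespread in the forebrain and abundant on choroid plexus epithelium, and its transcript is edited by adenosine deaminases. The gene lies on the X chromosome (146962513 to 147197277, plus strand), and 8 small RNA genes within its span share no exon bases with it. Htr2c had a lowest value of 13.6, a median of 16.6 and a highest value of 18.0 FPKM in CFA libraries, against 16.3, 17.4 and 19.2 FPKM in saline libraries. The lowest library was CFA 5 and the highest was saline 3, the library highest in Ttr, whereas saline 5, which is also high in Ttr, was at 16.5 FPKM. The means were 16.2 ± 1.5 FPKM in CFA libraries and 17.6 ± 1.17 FPKM in saline libraries (SD, n = 6 each). The difference was -0.12 (SE 0.06, 95% confidence interval -0.25 to 0.02, adjusted p = 0.713 in limma), and with the choroid plexus list as a covariate it was -0.10. It was -0.07 without CFA 5 and -0.0080 over the libraries with Xist.

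Htr2a (chromosome 14, 74640840 to 74709494, plus strand), whose receptor is the main target of classical hallucinogens and is dense in cortex, varied more. Htr2a had a lowest value of 2.23, a median of 3.04 and a highest value of 5.19 FPKM in CFA libraries, against 2.29, 3.10 and 3.81 FPKM in saline libraries. CFA 6 at 5.19 and CFA 3 at 4.07 FPKM were above every saline library, and CFA 4 was below every one. The coefficient of variation was 30.4% in CFA and 18.0% in saline libraries, against counting errors of 3.71% and 4.04%. The difference of 0.11 (95% confidence interval -0.19 to 0.41, adjusted p = 0.897 in limma) was 0.0075 without CFA 6, 0.20 without CFA 4 and 0.015 over the libraries with Xist.

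Of the genes for Gs-coupled receptors, Htr7 was lower in most CFA libraries. Its receptor is known in the brain for roles in circadian timing and mood, and the gene lies on chromosome 19 (35958734 to 36057507, minus strand). Htr7 had a lowest value of 7.59, a median of 8.77 and a highest value of 12.6 FPKM in CFA libraries, against 9.81, 11.7 and 13.0 FPKM in saline libraries. The CFA libraries split, with CFA 1, CFA 3, CFA 5 and CFA 6 below every saline library and CFA 2 and CFA 4 above the saline median. The means were 9.66 ± 2.18 FPKM in CFA libraries and 11.5 ± 1.06 FPKM in saline libraries (SD, n = 6 each). The difference was -0.25 (SE 0.11, 95% confidence interval -0.50 to -0.01), with an unadjusted p of 0.0428 and an adjusted p of 0.640 in limma and p = 0.0801 in the exact permutation test. Leaving out CFA 6 moved it to -0.20 (adjusted p = 0.818 in limma). The coefficient of variation was 22.6% in CFA and 9.16% in saline libraries, against counting errors of 2.85% and 2.67%.

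Htr7 tended to be low where striatal transcripts were high. The 12 striatal genes, Penk the highest, summed to 238 to 620 FPKM in CFA libraries and to 238 to 371 FPKM in saline libraries, none was at 0 in all libraries, and all 12 had a positive difference, with a median of 0.43. Over the 12 libraries Htr7 on the log2(FPKM + 1) scale had a Pearson r of -0.83 with the mean of the striatal list (permutation p = 0.00152, adjusted over 40 relations p = 0.0520) and a Spearman rho of -0.70 (permutation p = 0.0142, adjusted p = 0.183). Without CFA 1 and CFA 6, the libraries farthest from the median of the list, r was -0.71, and it was -0.84 within CFA and -0.60 within saline libraries. Neither coefficient passed the adjustment over the 40 relations, which set each of the 10 genes against the lateral septum, striatal, cortical and hippocampal, and choroid plexus lists. With the striatal list as a covariate the difference in Htr7 was -0.12 (adjusted p = 0.782 in limma), and that in Htr1a was -0.21 (adjusted p = 0.558). The part of striatal tissue in the difference was not tested beyond this fit. The order of libraries by the lateral septum list ran with Htr7 instead, with r = 0.72 (permutation p = 0.00855, adjusted p = 0.114) and r = 0.43 without CFA 5 and CFA 6. Against the cortical and hippocampal list Htr7 had r = -0.53 (permutation p = 0.0788, adjusted p = 0.394) and rho = -0.64 (permutation p = 0.0275, adjusted p = 0.183). That r was -0.60 within CFA and -0.92 within saline libraries. With the choroid plexus list r was 0.34 (permutation p = 0.299, adjusted p = 0.589), 0.91 within CFA and 0.07 within saline libraries.

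Htr4, the other gene of a Gs-coupled receptor, encodes a receptor known from gut motility and from hippocampal neurons, and the deposited table gives it chromosome 18, 62324204 to 62467802, plus strand, where GENCODE M21 ends the gene at 62496577. It averaged 1.49 ± 0.415 FPKM in CFA libraries and 1.58 ± 0.202 FPKM in saline libraries (SD, n = 6 each). CFA 4 was the lowest library at 0.845 FPKM, and CFA 1 the highest at 1.95 FPKM, so that saline libraries, at 1.35 to 1.91 FPKM, lay inside the CFA range. The difference was -0.07 (adjusted p = 0.930 in limma), 0.014 without CFA 4 and -0.12 without CFA 1.

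Htr3a, the only channel subunit among the 10, varied most between libraries of the same group. The gene lies on chromosome 9 (48899213 to 48911099, minus strand), and in the forebrain its RNA is known from a class of cortical and hippocampal interneurons. Htr3a had a lowest value of 0.489, a median of 1.06 and a highest value of 1.48 FPKM in CFA libraries, against 0.782, 1.17 and 1.79 FPKM in saline libraries. In both groups 3 libraries were high and 3 low, CFA 3, CFA 5 and CFA 6 with saline 1, saline 2 and saline 6 on the high side. The coefficient of variation was 39.2% in each group, against counting errors of 11.0% in CFA and 10.4% in saline libraries. The difference between the groups was -0.11 (SE 0.16, 95% confidence interval -0.46 to 0.23, adjusted p = 0.918 in limma), and it turned to 0.073 with the pan-neuronal list as a covariate. With single libraries left out it ran from -0.17 without CFA 5 to -0.026 without CFA 4, and it was -0.042 without saline 1 and -0.26 without saline 3 and saline 5.

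Htr3a ran in part with cortical and hippocampal transcripts. The list of cortical and hippocampal excitatory neurons (8 genes, none at 0 in all libraries) summed to 20.3 to 134 FPKM in CFA libraries and to 14.1 to 115 FPKM in saline libraries, and a gap in its mean set 4 libraries (CFA 1, CFA 2, CFA 4 and saline 4) apart from the other 8. Htr3a was 0.489 to 0.870 FPKM in those 4 libraries and 0.782 to 1.79 FPKM in the other 8. The split did not separate the levels, as saline 3 and saline 5, on the richer side at 0.789 and 0.782 FPKM, were below CFA 1 at 0.870 FPKM. Over the 12 libraries Pearson's r between Htr3a and the list mean was 0.81 (permutation p = 0.0026, adjusted over the 40 relations p = 0.0520). Spearman's rho was 0.67 (permutation p = 0.0204, adjusted p = 0.183), and neither passed. Pearson's r was 0.82 without saline 4 and CFA 3, 0.91 within CFA and 0.73 within saline libraries. Within the 8 libraries r was 0.64 (exact permutation p = 0.0980) and rho 0.45 (exact permutation p = 0.267). Htr3a was not alone in this. Htr5a had r = 0.65 with the same list (permutation p = 0.0258, adjusted p = 0.207) and rho = 0.68 (permutation p = 0.0188, adjusted p = 0.183). Its r was 0.42 without saline 4 and CFA 3, 0.71 within CFA and 0.78 within saline libraries. Within the 8 libraries Htr5a had r = 0.65 (exact permutation p = 0.0801) and rho = 0.64 (exact permutation p = 0.0962). These 8 were set by a gap seen in the data and are few, so a relation within them was neither shown nor excluded. Vip, an interneuron gene chosen after its values were seen, was 0.293 to 3.4 FPKM in CFA libraries and 0.341 to 3.00 FPKM in saline libraries, with 2.67 FPKM or more in CFA 3, CFA 5, CFA 6, saline 1 and saline 2. In saline 6, also high in Htr3a, Vip was 1.56 FPKM, near saline 5 at 1.34 and saline 3 at 1.33 FPKM, which were low in Htr3a.

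**Figure D3:**
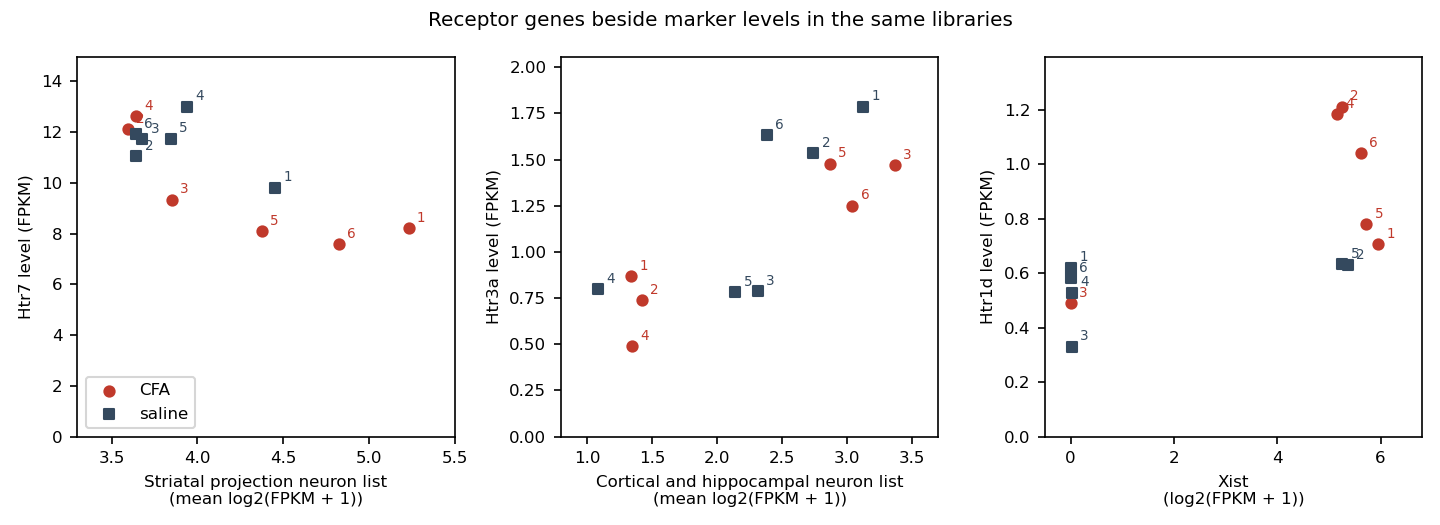
Receptor gene levels in FPKM beside marker levels in the same libraries, with CFA libraries as circles and saline libraries as squares, numbered by replicate. Left, Htr7 against the mean log2(FPKM + 1) of 12 striatal genes; middle, Htr3a against that of 8 cortical and hippocampal genes; right, Htr1d against Xist in log2(FPKM + 1). Htr7 is lowest in libraries rich in striatal transcripts. Htr3a is 0.489 to 0.870 FPKM in the 4 libraries poorest in cortical transcripts and 0.782 to 1.79 FPKM in the other 8, and the 5 CFA libraries with Xist, at 0.708 FPKM or more, hold the highest Htr1d.

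Summed over the 10 genes, receptor RNA came to 54.8 ± 2.47 FPKM in CFA libraries and 60.4 ± 2.76 FPKM in saline libraries (SD, n = 6 each), with ranges of 52.0 to 58.4 and 58.0 to 64.7 FPKM. The genes of Gi-coupled receptors gave 23.0 ± 1.45 FPKM in CFA and 25.5 ± 1.76 FPKM in saline libraries. Those of Gq-coupled receptors gave 19.6 ± 2.12 FPKM in CFA and 20.6 ± 0.992 FPKM in saline libraries, and those of Gs-coupled receptors 11.1 ± 2.02 FPKM in CFA and 13.1 ± 0.886 FPKM in saline libraries. Gi-coupled receptors thus took 42.1% of the summed level in both groups, Gq-coupled receptors 35.8% in CFA and 34.1% in saline libraries, and Gs-coupled receptors 20.3% in CFA and 21.7% in saline libraries. These sums rest mainly on Htr1a, Htr2c and Htr7 and are given with no test.

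Of the other 4 mouse serotonin receptor genes, Htr2b and Htr3b were low. Over all 12 libraries Htr5b averaged 2.03 FPKM and Htr6 1.63 FPKM, above the means of Htr4 (1.54 FPKM), Htr1f, Htr3a and Htr1d. None of these 4 genes is in the sums by receptor class. Htr5b averaged 1.95 ± 0.383 FPKM in CFA and 2.11 ± 0.400 FPKM in saline libraries, and Htr6, a further Gs-coupled receptor, 1.77 ± 0.541 FPKM in CFA and 1.49 ± 0.344 FPKM in saline libraries (SD, n = 6 each). Their differences were -0.08 and 0.14 (adjusted p = 0.904 and 0.843 in limma). Htr2b stayed at or below 0.325 FPKM and shares 252 exon bases with Psmd1 on the opposite strand, and Htr3b, the second channel subunit, had 8 reads over all 12 libraries.

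Genes of the serotonin neurons, whose cell bodies lie in the raphe, were close to 0. Tph2, the enzyme that starts serotonin synthesis in neurons, was 0.141 to 0.318 FPKM in CFA and 0.0575 to 0.228 FPKM in saline libraries. Slc6a4, the serotonin transporter, was at most 0.0593 FPKM in CFA and 0.0487 FPKM in saline libraries. Of 14 genes for synthesis, transport and breakdown, 7 reached the filter, 3 with a positive and 4 with a negative difference. None passed in limma, and 0 had an unadjusted p under 0.05, against 7.67% of all genes tested. Maoa, the enzyme that degrades serotonin, averaged 7.49 ± 0.591 FPKM in CFA and 6.93 ± 0.271 FPKM in saline libraries (SD, n = 6 each), a difference of 0.10 (adjusted p = 0.693 in limma). Slc29a4, a low-affinity transporter that choroid plexus also expresses, was 2.55 to 7.39 FPKM in CFA and 4.93 to 11.8 FPKM in saline libraries, with saline 3 at 11.8, saline 5 at 6.00 and CFA 4 at 7.39 FPKM.

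Downstream of the receptors, all 27 listed genes of G proteins, adenylyl cyclases, phospholipases and inward-rectifier potassium channels were tested. None passed, and Gnas was the 1 gene with an unadjusted p under 0.05, against 7.67% of all genes tested. Of the 27, 11 differences were positive and 16 negative, with a median of -0.01. Gnas, which encodes the alpha subunit of Gs that Htr4, Htr6 and Htr7 engage, was 11.4 to 13.6 FPKM in CFA libraries and 14.2 to 15.5 FPKM in saline libraries. These ranges did not overlap, as was so for 0.495% of the 13345 genes tested. The difference was -0.23 (SE 0.05, unadjusted p = 0.000287, adjusted p = 0.165 in limma). Gnas shares 988 exon bases with the antisense gene Nespas and 1469 with Gm20721, also on the opposite strand, so its reads may include theirs. Adcy2, an adenylyl cyclase, averaged 30.9 ± 2.63 FPKM in CFA and 33.6 ± 1.95 FPKM in saline libraries (SD, n = 6 each), a difference of -0.12 (adjusted p = 0.663).

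Among 11 receptor partners and RNA-editing enzymes, 5 differences were positive and 6 negative. None passed, and Rgs4 and Rgs8 were the 2 genes with an unadjusted p under 0.05, against 7.67% of all genes tested. Rgs4 and Rgs8 encode proteins that shorten the signal of Gi-coupled receptors. Rgs4 averaged 34.1 ± 6.11 FPKM in CFA and 27.8 ± 3.22 FPKM in saline libraries (SD, n = 6 each), a difference of 0.27 (unadjusted p = 0.0287, adjusted p = 0.603 in limma). Rgs8 averaged 10.4 ± 1.36 FPKM in CFA and 8.86 ± 1.19 FPKM in saline libraries, a difference of 0.21 (adjusted p = 0.636). S100a10, an adaptor that carries the receptor of Htr1b to the cell surface, averaged 14.2 ± 2.10 FPKM in CFA and 12.4 ± 2.49 FPKM in saline libraries, a difference of 0.20 (adjusted p = 0.766).

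The genes whose levels over the 12 libraries were most like each receptor gene, by Pearson's r of log2(FPKM + 1), differed from receptor to receptor. For Htr7 they were Slc24a3 (r = 0.96) and Ppfia4 (r = 0.95), and for Htr1a Smim18 (r = 0.93) and Faf2 (r = 0.90). For Htr2c they were Ubl5 (r = 0.93) and Dcbld1 (r = 0.86), for Htr2a Nxt1 (r = 0.93) and Cdc42se2 (r = 0.92), and for Htr3a Zc4h2 (r = 0.92) and Brk1 (r = 0.91). Htr4 was most like Eif5 (r = 0.93) and Tmem263 (r = 0.91), Htr1b Tent5a (r = 0.90) and Socs4 (r = 0.89), Htr1f Pikfyve (r = 0.90) and Tspan12 (r = 0.89), and Htr5a Nptx2 (r = 0.86) and S100a10 (r = 0.84). Each r is the highest or second highest among 13345 genes over the same libraries, and is a description only.

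**Figure D4:**
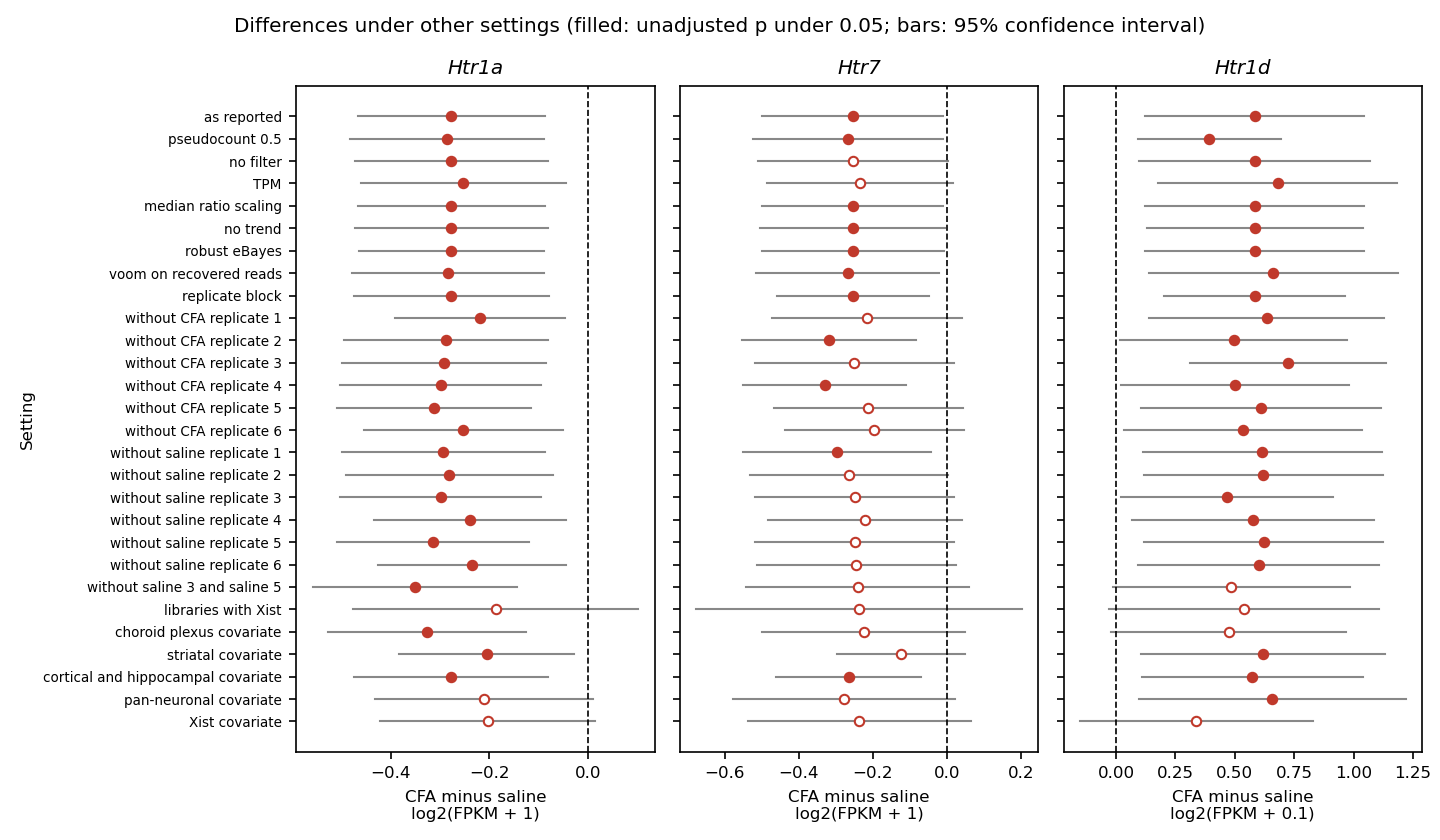
Difference between CFA and saline libraries for Htr1a, Htr7 and Htr1d under each setting, with 95% confidence intervals and a row per setting; each setting keeps its own log2 scale. Filled points have an unadjusted p under 0.05 in limma. Htr1a stays negative in every row and Htr1d positive, and the points of Htr7 open when most single libraries are left out.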

How the data were processed

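RNA of 6 CFA and 6 saline samples of lateral septum was extracted with Trizol and sequenced as paired reads, per the labels' protocols. Reads were aligned with HISAT2 2.0.5 to mm10, per the submitters' processing notes. No source used here names the counter, its strand setting or the annotation. The authors deposited FPKM with a gene length per gene. FPKM times gene length fell on whole steps, from which reads were recovered (100% of values within 0.01 read of a whole number, 33.6 to 39.2 M per library). Another 6 value columns matched no sample and were not used.

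Genes with at least 1 FPKM in at least 6 libraries were tested two-sided with limma 3.58.1 in R 4.3.3 (eBayes with trend) on log2(FPKM + 1) and adjusted by Benjamini-Hochberg over 13345 genes at 0.05. Folds on this scale understate changes of low genes. Htr1d was tested at 0.1 FPKM with a pseudocount of 0.1 (20354 genes). Depth limits low genes, and counting errors take reads as independent. Permutation tests of single genes used log2(FPKM + 1) and every assignment of 6 of the 12 libraries; correlations used 100000 resamples. Coordinates are 1-based, in GRCm38 (mm10); 98.3% of gene IDs in GENCODE M21 had the same coordinates. Each fit was tested on simulated reads.

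Replicate numbers were not taken to pair the samples (correlations of deviations -0.01 to 0.16), so no block was used in the fits reported first. The members and lists were chosen with earlier results of these data known. Besides the 10 receptors, genes named were the 4 other receptors, Tph2, Slc6a4, Maoa, up to 4 of each serotonin list by smallest p, the 2 genes most like each receptor and the highest gene of a cell type list; any other was chosen after its values were seen, as stated beside it. Alternatives changed the pseudocount, filter, scaling, variance model, block, covariates and libraries used.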

Additional observations from a re-analysis of the deposited data

Results flagged for a closer look

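In saline libraries Htr1d was lowest in saline 3, at 0.330 FPKM, with a gap to the next library of 0.655 of the group's range (beyond Dixon's 95% critical value for 6 samples). This was the only such value in 28 groups looked at (14 receptor genes in 2 groups), where chance flags about 1 in 20. Saline 3 is the library highest in Ttr and has no Xist. Without it the difference in Htr1d was 0.47 (unadjusted p = 0.0410 in limma).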

How the results depend on the processing

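No setting moved a receptor gene past the threshold: 0 were called under each of 30 alternatives, 0 of 10 with the lower filter under each of 28, and 0 genes of the other serotonin lists. The lowest adjusted p of a receptor gene was 0.192, for Htr7 without CFA 4. Differences of Htr1a ranged from -0.35 to -0.19, those of Htr7 from -0.33 to -0.12 and those of Htr1d from 0.28 to 0.72. The 0.28 of Htr1d came with a pseudocount of 1, a scale that understates differences of low genes. On the log2(FPKM + 0.1) scale its lowest difference was 0.34, with Xist as a covariate. The unadjusted p was 0.05 or more in 3 of 30 fits for Htr1a, 17 of 30 for Htr7 and 4 of 28 for Htr1d. Small differences turned sign: Htr1b to -0.0092 without CFA 1 (-0.0092 to 0.080 over single libraries left out), to -0.027 over the libraries with Xist and to -0.052 with the pan-neuronal list as a covariate; Htr3a to 0.073 with that covariate; Htr4 to 0.014 without CFA 4 (-0.12 to 0.014); Htr5a to -0.020 over the libraries with Xist. The cause was not tested. Among all genes, 1 to 13 were called against 4, with 1 under the replicate block, 2 with no filter and 13 with the striatal covariate. Same-numbered samples were taken to share only a number, since not every pair's correlation was over 0.1; 5 of 12 libraries correlated best with their own number, a hint from the data and not the design. The replicate block called no receptor gene. With it the unadjusted and adjusted p in limma were 0.0114 and 0.463 for Htr1a and 0.0208 and 0.538 for Htr7. For Htr1d, with the lower filter, they were 0.00716 and 0.502. Depth limits Htr1d, Htr3a and Htr1f most.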
